A study of Arabidopsis thaliana with 24 samples.

Results

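The comparison described here sets Arabidopsis thaliana seedlings of the p2k1-3 bdg-8 double mutant against seedlings of the p2k1-3 single mutant, both given 150 µM ATP for 30 min. It rests on 6 of the 24 libraries of the series, 3 of each genotype, chosen by their genotype and treatment labels. Both groups carry p2k1-3 and both received ATP, so bdg-8 is the labelled difference between them. Other groups used beside it were p2k1-3 bdg-8 and p2k1-3 after mock treatment, and bdg-8 and Col-0, the wild type, with ATP or mock, with 3 libraries each. The labels give seedlings as the tissue, and state neither the seedlings' age nor the molecular nature of the p2k1-3 and bdg-8 alleles. Whether the 3 libraries of a group stem from independent cultures is not given in the labels, and p-values then cover only the variation among these libraries, part or all of which could be technical.

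P2K1, also called DORN1, is a lectin receptor kinase of the plasma membrane that binds extracellular ATP, a signal released by wounded or infected plant cells. Its activation raises cytosolic calcium and turns on wound and defence genes, among them genes of jasmonate synthesis. BODYGUARD 1 (BDG1) is an extracellular hydrolase of the epidermis that is needed for a normal cuticle, the cutin and wax layer that seals the shoot. Loss of BDG1 is known to make the surface permeable and to alter resistance to fungi. The comparison asks what a labelled cuticle mutation does to the transcriptome of ATP-treated seedlings in which the main ATP receptor gene is mutated.

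Levels are CPM, the reads of a gene scaled to a common library total, with trimmed-mean (TMM) scaling for library composition. The call of a gene is an adjusted p under 0.05 in edgeR's quasi-likelihood test, with Benjamini-Hochberg adjustment over all genes tested, and ± beside a log2 fold change is its standard error. Gene totals were 29193021 to 35239775 counts in the double mutant libraries with ATP and 27655271 to 31700261 in the p2k1-3 libraries with ATP. Over all 24 libraries totals were 25856588 to 35239775, and 23193 to 23446 genes were detected. The third replicates were intermediate. Replicate 3 lay between replicates 1 and 2 for 45.8% of genes in the double mutant with ATP and for 44.2% in p2k1-3 with ATP, and for 41.1 to 53.3% over all 8 groups, where replicates 1 and 2 lay between the other 2 for at most 30% of genes. Over the typical gene, the squared difference of replicate 3 from the best-fitting mix of replicates 1 and 2 was 1.33 times what counting error gives in the double mutant with ATP, where replicate 1 had a weight of 0.5, and 1.3 times in p2k1-3 with ATP, where it had 0.45. Against the best mix of the other 2, replicates 1 and 2 stood at 1.87 and 1.84 times counting error in the double mutant with ATP. In p2k1-3 with ATP they stood at 1.84 and 1.58 times. Compared directly, without a mix, replicates 1 and 2 differed from each other by 2.92 and 2.35 times counting error in those groups. Whether replicate 3 is an independent library was not tested. If it is not, each group holds 2 independent libraries, and the errors and adjusted p-values below would be too small. Total counts of called genes for each bdg-8 comparison, and counts of list members with ATP, are therefore also given with replicates 1 and 2 alone. Other counts rest on all 3 replicates, such as list members after mock or in the difference tests, overlaps between comparisons and genes grouped by the Col-0 response.

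The labelled genes were looked at first. P2K1 (listed as LecRK-I.9, AT5G60300) had 11.1, 10.8 and 11.3 CPM in the double mutant with ATP, against 12, 13.5 and 13.4 CPM in p2k1-3 with ATP. These groups did not overlap but were close, with a log2 fold change of -0.23 ± 0.07 (SE) and an adjusted p of 0.0098, which became 0.096 with replicates 1 and 2 alone. Both were below the groups labelled as carrying wild-type P2K1, which averaged 32.8 ± 2.0 CPM in bdg-8 with ATP and 26.6 ± 0.94 CPM in Col-0 with ATP (SD, n = 3 each). P2K1 has close relatives next to it on the chromosome, so its level may hold or lack shared reads.

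BDG1 (AT1G64670) had 114, 110 and 112 CPM in the double mutant with ATP, against 24.6, 24 and 25.4 CPM in p2k1-3 with ATP. The gene named by the bdg-8 label was thus higher in every double mutant library, 4.54-fold (log2 2.18 ± 0.07, adjusted p 1e-16). After mock treatment it was lower, averaging 15.3 ± 0.47 CPM in the double mutant and 23.3 ± 1.2 CPM in p2k1-3 (log2 -0.60, adjusted p 2.0e-06). In the Col-0 background with ATP the level was also higher with bdg-8, at 107 ± 9.9 CPM in bdg-8 and 26.0 ± 1.8 CPM in Col-0. Reads were summed over the whole gene, so these levels cannot tell an intact BDG1 transcript from a truncated one. Of the 10 tested genes nearest to BDG1 by identifier, 5 on each side, 6 were called, with log2 fold changes of -1.16 to 0.91, where 53.9% of all genes tested were called.

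With ATP, the transcriptomes of the double mutant and p2k1-3 differed widely. At an edgeR adjusted p under 0.05, 11323 of 20995 genes tested were called (53.9%), of which 6038 rose (28.8%) and 5285 fell (25.2%) in the double mutant. Most of these changes were small. Only 816 of the rises (3.89% of genes tested) and 557 of the falls (2.65%) were at least 2 fold, and the median log2 fold change over all genes was 0.01. With replicates 1 and 2 alone, 7844 genes were called (37.3%), 4255 higher (20.3%) and 3589 lower (17.1%), and 7788 of them (68.8% of the 11323) were called in both. With so many genes called, a call by itself says little about any 1 gene, and the shares below are read against 28.8% and 25.2%.

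The sampled tissue also differed by its markers. All 15 markers of green tissue, genes of the light-harvesting antenna, the photosystems and Rubisco, fell (14 with replicates 1 and 2 alone). Their median log2 fold change was -0.55. Their summed level was 43819 to 51403 CPM in the double mutant with ATP and 70112 to 72082 CPM in p2k1-3 with ATP. LHCB2.1, an antenna protein of photosystem II, had 619, 834 and 687 CPM in the double mutant and 1627, 1708 and 1575 CPM in p2k1-3. The 3 double mutant libraries were all below the lowest p2k1-3 library (log2 -1.20 ± 0.11, adjusted p 3.2e-09). After mock treatment the fall of the green markers was smaller, with 8 of 15 called lower and a median of -0.25. In RNA of seedlings, fewer green cells and less of these RNAs per green cell cannot be told apart, and the same holds for each cell type named below.

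Among stomatal lineage and guard cell markers, 9 of 10 fell and none rose, with a median of -0.59. SPCH, the factor that starts the stomatal lineage, had 5.85, 6.46 and 7.13 CPM in the double mutant and 14.3, 14.1 and 14.3 CPM in p2k1-3. MUTE, which ends the divisions of that lineage, and TMM, a receptor that spaces stomata, fell by 1.24 ± 0.18 and 1.05 ± 0.10 on the log2 scale. The summed guard cell markers stood at 57.8 to 61.0 CPM in the double mutant and 92.5 to 97.0 CPM in p2k1-3. With replicates 1 and 2 alone, 8 of the 10 fell.

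Epidermal markers were split: 4 of 6 fell, among them ATML1, the factor that sets epidermal identity (log2 -0.70 ± 0.05), and 2 rose, among them the lipid transfer protein gene LTP1 (listed as LP1, 0.45 ± 0.07). Replicates 1 and 2 alone left 2 lower and 1 higher. The summed level of all 6 overlapped, at 1042 to 1205 CPM in the double mutant and 1005 to 1046 CPM in p2k1-3. Of 13 mitotic markers, 7 fell and none rose, by at most 0.33, and 3 with replicates 1 and 2 alone. Their sum was 230 to 233 CPM in the double mutant and 263 to 273 CPM in p2k1-3. Of 8 root hair genes 2 rose (0 with replicates 1 and 2 alone), with a median of 0.25. Of 9 endodermis genes 1 rose and 3 fell (1 and 1 with replicates 1 and 2 alone), with a median of -0.06. CASP5, a protein of the Casparian strip, had the lowest log2 fold change among them, -2.79, at levels under 0.26 CPM in every library of both groups. No marker was at 0 in all libraries of either group. The part of these marker differences in the gene groups below was not tested.

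The 15 largest rises with ATP were taken among called genes with an average log2 CPM of at least 1 whose groups did not overlap, as 32.2% of all genes did upwards and 28.7% downwards. They included transcription factors, jasmonate genes and wall enzymes. ERF13, an ethylene response factor, had 35.7, 32.2 and 30.5 CPM in the double mutant with ATP, against 3.35, 4.23 and 3.17 CPM in p2k1-3 with ATP. The groups were far apart, with a 9.19-fold difference (log2 3.2 ± 0.12, adjusted p 2.1e-15). GPT2, a plastid glucose 6-phosphate transporter, had 420, 380 and 393 CPM in the double mutant and 47.4, 44.4 and 44.5 CPM in p2k1-3, an 8.76-fold difference (adjusted p 2.9e-11).

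JAZ5, a repressor of jasmonate signalling that jasmonate itself induces, had 35.1, 29.3 and 33.5 CPM in the double mutant and 4, 4.08 and 4.49 CPM in p2k1-3 (log2 2.96 ± 0.16). LOX3, a lipoxygenase of jasmonate synthesis, had 99.1, 93.8 and 97.9 CPM in the double mutant and 13.3, 16.5 and 15.8 CPM in p2k1-3 (2.67 ± 0.11). TAT3, a tyrosine aminotransferase gene used as a jasmonate marker, was more variable, with 21.8, 8.97 and 13.3 CPM in the double mutant and 1.37, 2.30 and 1.99 CPM in p2k1-3 (2.95 ± 0.39). In all 3 genes the groups did not overlap.

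MYB15, a factor for lignin and defence phenolics, had 17.1, 18.8 and 17.42 CPM in the double mutant and 2.7, 3.5 and 2.66 CPM in p2k1-3 (log2 2.6 ± 0.21). The pectin methylesterase gene PME41 (listed as ATPMEPCRB) had 418, 391 and 402 CPM in the double mutant and 70.4, 54.5 and 68.0 CPM in p2k1-3 (2.65 ± 0.16). LTP2, a lipid transfer protein gene expressed in the epidermis, had 257, 328 and 283 CPM in the double mutant and 49.8, 54.0 and 50.8 CPM in p2k1-3 (2.49 ± 0.11). In each of the 3 all double mutant libraries were far above all p2k1-3 libraries. The rest of the 15 were FAMT, a methyltransferase gene, XBAT34, a RING-finger ankyrin gene, and AT5G52760, AT2G32210, AT2G32140, AT4G38560 and AT2G43620, with log2 fold changes of 2.41 to 2.80.

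The 15 largest falls were led by CYP81D11, a cytochrome P450 gene induced by xenobiotics and oxylipins. It had 1.29, 1.75 and 1.58 CPM in the double mutant with ATP, against 58.0, 43.6 and 53.2 CPM in p2k1-3 with ATP, a 33.2-fold difference (log2 -5.05 ± 0.27, adjusted p 3.5e-13). MYBL2, a repressor of anthocyanin synthesis, had 4.39, 6.05 and 5.16 CPM in the double mutant and 30.2, 35.8 and 34.2 CPM in p2k1-3 (-2.67 ± 0.18). The groups were far apart for both genes.

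IAGLU, which couples the auxin indole-3-acetic acid to glucose, had 9.54, 9.32 and 9.54 CPM in the double mutant and 60.3, 47.3 and 51.9 CPM in p2k1-3 (log2 -2.49 ± 0.12). EXPA8, an expansin that loosens cell walls, had 1.81, 3.54 and 2.51 CPM in the double mutant and 13.1, 12.7 and 11.7 CPM in p2k1-3 (-2.23 ± 0.19). BXL1, a beta-xylosidase and arabinosidase of the wall, had 23.1, 47.4 and 35.2 CPM in the double mutant and 179, 173 and 181 CPM in p2k1-3 (-2.33 ± 0.20). Double mutant replicate 1 of BXL1 was the lowest and replicate 2 the highest, and all 3 stayed far below p2k1-3. Also among the 15 were ATCTH, a tandem zinc finger gene (-2.51 ± 0.14), the monooxygenase gene MO1 (-2.25 ± 0.10) and the aldolase gene FBA5 (-2.23 ± 0.29). FRO2, the root ferric reductase (-2.18 ± 0.29), was among them too. For FRO2, p2k1-3 replicate 1 (2.29 CPM) lay well below the others (6.45 and 5.80 CPM). The rest were AT5G05250, AT1G23390, AT5G44260, AT3G05945, AT2G15880 and AT5G48490, with log2 fold changes of -2.66 to -2.23.

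**Figure D1:**
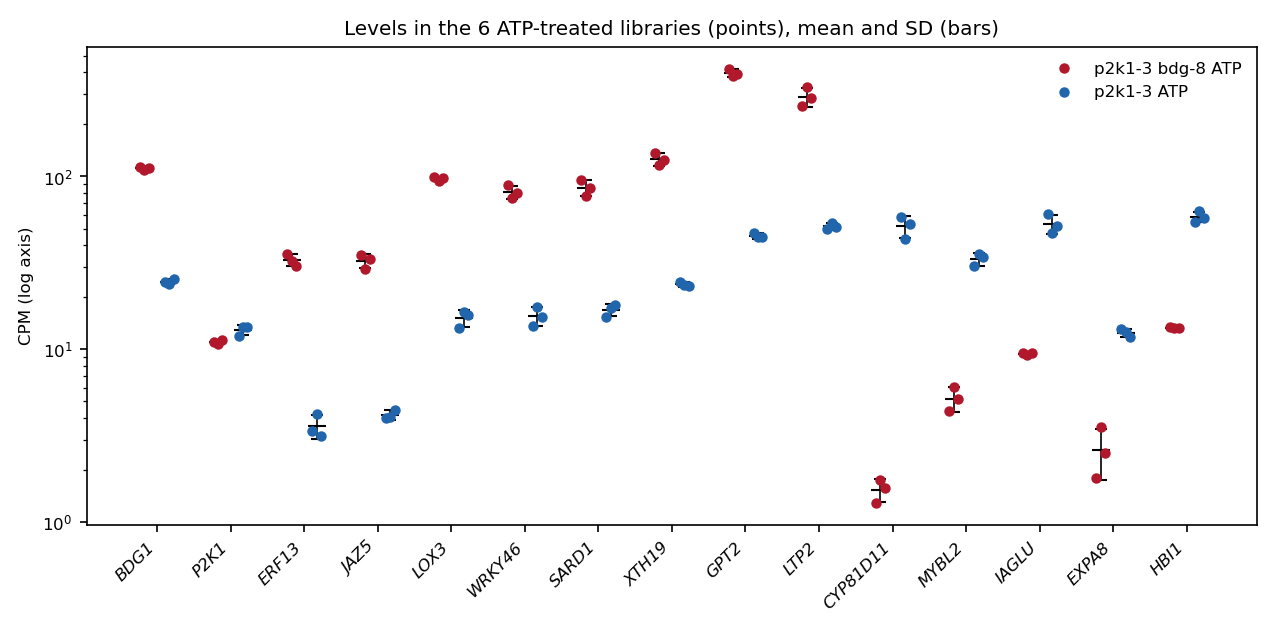
CPM on a log axis for 15 genes in the 6 ATP-treated libraries, p2k1-3 bdg-8 left of p2k1-3; points are libraries and bars the mean and SD of 3. BDG1 stands at 110 to 114 CPM against 24 to 25.4 CPM, and CYP81D11 at 1.29 to 1.75 CPM against 43.6 to 58.0 CPM, while P2K1 differs by little.

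Genes of early immune signalling rose together. Of 32 tested genes for pattern recognition and early signalling, 28 rose and none fell, with a median log2 fold change of 0.72, against 28.8% of all genes and a median of 0.01 (22 rose with replicates 1 and 2 alone). MPK3, a MAP kinase of pattern-triggered signalling, had 435, 407 and 421 CPM in the double mutant with ATP, against 152, 191 and 172 CPM in p2k1-3 with ATP (1.29, adjusted p 2.2e-14). RBOHD, which makes the superoxide of immune responses, had 339, 339 and 343 CPM in the double mutant and 109, 146 and 129 CPM in p2k1-3 (1.41). Groups did not overlap for either gene.

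Among receptors, SOBIR1, the adaptor kinase of receptor-like proteins, had 121, 111 and 110 CPM in the double mutant and 32.8, 43.9 and 38.2 CPM in p2k1-3 (log2 1.58 ± 0.09). MPK11, a MAP kinase that microbial patterns induce, had 6.72, 4.85 and 4.54 CPM in the double mutant and 0.684, 1.20 and 1.06 CPM in p2k1-3 (2.45 ± 0.26). The co-receptor BAK1 rose by less, with 95.6, 94.4 and 95.5 CPM in the double mutant and 76.0, 81.3 and 76.0 CPM in p2k1-3 (0.29). FRK1, a receptor kinase gene used as a marker of pattern-triggered immunity, had 42.0, 22.3 and 29.6 CPM in the double mutant and 13.9, 11.7 and 12.3 CPM in p2k1-3 (1.3 ± 0.32, adjusted p 0.0016, and 0.065 with replicates 1 and 2 alone). MPK6, the partner kinase of MPK3, did not pass the test (-0.03).

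Cysteine-rich receptor-like kinases, many of which lie in clusters of similar genes, rose in 16 of 19 cases with none falling (median 0.97, and 14 of 19 with replicates 1 and 2 alone). CRK14 had 22.4, 20.4 and 21.6 CPM in the double mutant and 5.06, 5.07 and 5.54 CPM in p2k1-3 (log2 2.04 ± 0.12). CRK13 had 48.6, 43.8 and 44.7 CPM in the double mutant and 12.8, 12.5 and 10.8 CPM in p2k1-3 (1.92 ± 0.17). Because reads that matched several genes were not counted, levels of such near copies are uncertain. The clade I lectin receptor kinases, to which P2K1 belongs, and the apyrases, which break down ATP, moved little. Of these 3 of 13 rose and 1 fell (median 0.01, and 3 and 0 with replicates 1 and 2 alone). The lectin kinase LECRK-I.7 (AT5G60270) rose by 0.67 ± 0.06 and the apyrase APY1 by 0.33 ± 0.05.

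Calcium genes followed the same direction, with 17 of 20 higher and 2 lower (median 0.70, and 16 and 1 with replicates 1 and 2 alone). CML37, a calmodulin-like protein induced by wounding, had 22.1, 20.4 and 20.7 CPM in the double mutant and 3.04, 6.41 and 4.71 CPM in p2k1-3 (log2 2.16 ± 0.19). CPK28, a calcium-dependent kinase that limits immune signalling, had 291, 295 and 292 CPM in the double mutant and 95.5, 119 and 112 CPM in p2k1-3 (1.43). CNGC19, a cyclic nucleotide-gated calcium channel, had 18.5, 16.7 and 17.7 CPM in the double mutant and 6.43, 6.27 and 5.80 CPM in p2k1-3 (1.52 ± 0.12). CNGC2 (listed as DND1), a channel of the same family, fell by 0.29.

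Stress transcription factors rose in all 3 families listed. Of 18 WRKY genes 16 rose and none fell (median 1.08), of 8 zinc finger genes of the ZAT and AZF group all 8 rose (1.19), and of 18 ERF and DREB genes 12 rose and 1 fell (0.87). With replicates 1 and 2 alone the rises numbered 16, 7 and 11. WRKY46 had 89.0, 75.1 and 79.8 CPM in the double mutant with ATP, against 13.7, 17.56 and 15.4 CPM in p2k1-3 with ATP (2.38 ± 0.12). WRKY40, a pathogen-induced repressor, had 56.1, 49.0 and 53.1 CPM in the double mutant and 12.2, 19.5 and 16.2 CPM in p2k1-3 (1.73 ± 0.13).

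WRKY33, which controls camalexin genes, had 232, 209 and 222 CPM in the double mutant and 77.6, 113 and 97.9 CPM in p2k1-3 (log2 1.20). ZAT10 (listed as STZ), a zinc finger repressor of stress responses, had 85.7, 81.5 and 86.3 CPM in the double mutant and 21.1, 34.0 and 29.5 CPM in p2k1-3 (1.58 ± 0.14). ERF11, a repressor of the ERF family, had 45.4, 40.6 and 41.6 CPM in the double mutant and 7.18, 9.77 and 8.62 CPM in p2k1-3 (2.32). The groups did not overlap in any of these genes. ORA59, an ERF that joins jasmonate and ethylene signals, went the other way, with 3.93, 4.47 and 3.75 CPM in the double mutant and 6.02, 11.2 and 8.74 CPM in p2k1-3 (-1.08). The cold factor genes CBF1, CBF2 and CBF3 (listed as DREB1A) did not pass the test.

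Jasmonate synthesis genes rose in 8 of 13 cases and fell in 2 (median 1.131, and 7 and 0 with replicates 1 and 2 alone). Risers were found at several steps. The lipoxygenase genes LOX2, LOX3 and LOX4 had log2 fold changes of 1.37, 2.67 and 2.18, the allene oxide synthase gene AOS 1.131, the cyclase gene AOC3 1.65, the reductase gene OPR3 1.64 and the ligase gene OPCL1 1.57. AOS had 240, 249 and 241 CPM in the double mutant and 99.3, 123 and 111 CPM in p2k1-3. OPR3 had 111, 114 and 112 CPM in the double mutant and 33.7, 39.6 and 35.0 CPM in p2k1-3. Groups did not overlap for these genes. The 2 that fell were AOC4 and JAR1, the enzyme that makes the active conjugate, by at most 0.14, and neither passed with replicates 1 and 2 alone. ACX1, of the beta-oxidation step, did not pass the test (-0.01).

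Jasmonate repressors and output genes rose in 13 of 19 cases, with none falling (median 0.75, and 12 and 1 with replicates 1 and 2 alone). JAZ1 had 229, 198 and 217 CPM in the double mutant and 62.2, 65.5 and 64.8 CPM in p2k1-3 (log2 1.74). JAZ7 had 11.8, 11.8 and 10.8 CPM in the double mutant and 1.44, 1.53 and 1.28 CPM in p2k1-3 (3.02 ± 0.25). CYP94C1, which oxidises and inactivates the jasmonate conjugate, had 81.1, 68.8 and 72.7 CPM in the double mutant and 16, 14.7 and 15.9 CPM in p2k1-3 (2.25). VSP2, a storage protein and late jasmonate marker, had 21.8, 20.2 and 21.2 CPM in the double mutant and 6.43, 8.78 and 6.25 CPM in p2k1-3 (1.56 ± 0.24). The receptor gene COI1, the factor gene MYC3 and JAZ12 did not pass the test.

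Salicylic acid defence genes were mostly higher, with 13 of 18 rising and 3 falling (median 0.75, and 11 and 2 with replicates 1 and 2 alone). SARD1 and CBP60G, paired factors that switch on salicylic acid synthesis, were among the risers. SARD1 had 95.4, 77.5 and 85.3 CPM in the double mutant with ATP, against 15.4, 17.3 and 18.1 CPM in p2k1-3 with ATP (log2 2.34 ± 0.09, adjusted p 1.8e-15). CBP60G had 61.9, 60.8 and 59.1 CPM in the double mutant and 16, 21.8 and 19.8 CPM in p2k1-3 (1.66 ± 0.12). The synthesis gene ICS1 (listed as EDS16) itself did not pass the test (0.20).

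PR1 and PR2 (listed as BGL2), the classical outputs of salicylic acid, were called lower, yet the p2k1-3 replicates disagreed. PR1 had 2.54, 1.26 and 2.07 CPM in the double mutant and 0.103, 74.2 and 40 CPM in p2k1-3 (-4.30 ± 0.94, adjusted p 0.00044). PR2 had 4.46, 2.48 and 3.37 CPM in the double mutant and 0.376, 18.4 and 10.9 CPM in p2k1-3 (-1.53). For both genes the groups overlapped, and p2k1-3 replicate 1 was below every double mutant library. PR5, the other marker of the family, had 22.1, 29.3 and 26.2 CPM in the double mutant and 12.7, 18.3 and 14.4 CPM in p2k1-3 (0.78).

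Genes for indole glucosinolates and camalexin rose in 10 of 12 cases and fell in 1 (median 0.72, and 8 and 1 with replicates 1 and 2 alone). IGMT2, which methylates indole glucosinolates, had 9.61, 9.96 and 10.2 CPM in the double mutant and 2.33, 3.39 and 3.23 CPM in p2k1-3 (log2 1.73 ± 0.16). CYP81F2, an enzyme of the same branch, had 32.6, 33.9 and 32.9 CPM in the double mutant and 16.8, 20.6 and 18.4 CPM in p2k1-3 (0.84). Aliphatic glucosinolate genes were split, with 6 of 11 higher and 4 lower. The synthesis genes CYP79F1, CYP79F2, CYP83A1, MAM1 and BCAT4 and the modifier ESM1 rose, and the regulators MYB28, MYB29 and MYB76 and the myrosinase gene TGG1 fell. With replicates 1 and 2 alone, 6 were higher and 2 lower.

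Ethylene genes rose in 5 of 12 cases and fell in 5 (5 and 3 with replicates 1 and 2 alone). The risers were 5 of the 6 ACC synthase genes tested, which make the ethylene precursor: ACS7 had 57.0, 51.1 and 52.8 CPM in the double mutant and 15, 14.2 and 14.6 CPM in p2k1-3 (log2 1.87 ± 0.11), and ACS2, ACS6, ACS8 and ACS11 rose by 0.66 to 1.9. The oxidase gene ACO4 (listed as EFE) fell by 0.85, with 175, 152 and 161 CPM in the double mutant and 299, 290 and 290 CPM in p2k1-3. The ethylene-induced feedback genes EBF2, ERS2 and ETR2 fell by 0.31 to 0.47, and EIN3, the main ethylene transcription factor, by 0.13. ACS4 did not pass the test (-0.91), at levels under 0.55 CPM in every library of both groups.

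**Figure D2:**
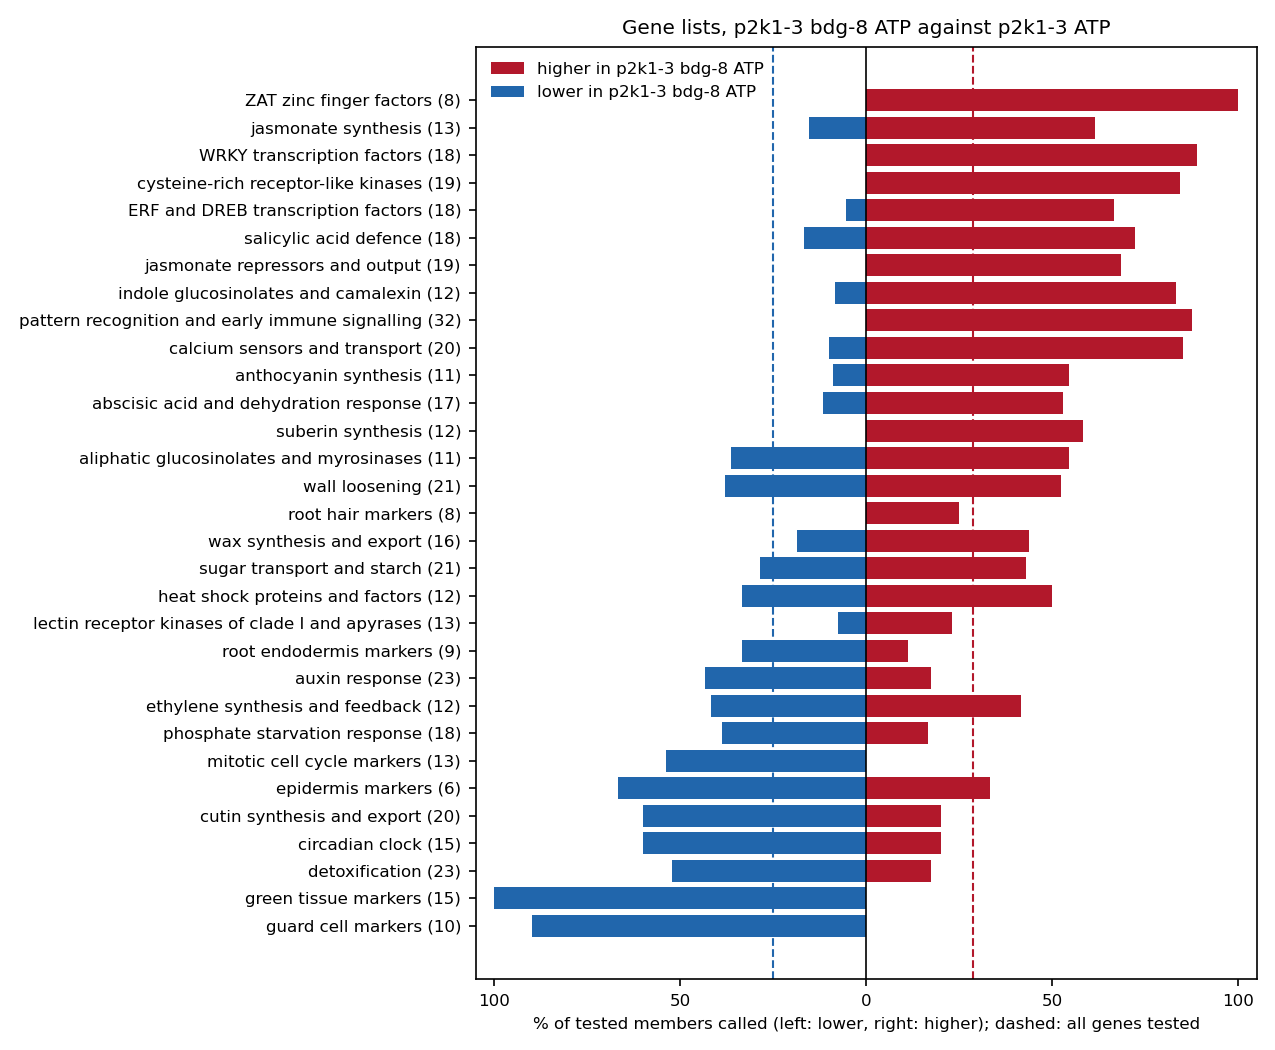
Share of the tested members of each gene list (number in parentheses) that were called higher or lower in p2k1-3 bdg-8 with ATP against p2k1-3 with ATP; dashed lines mark 28.8% higher and 25.2% lower among all genes tested. All 8 ZAT genes were higher and all 15 green tissue markers lower.

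Of 20 tested cutin genes 4 rose and 12 fell (median -0.22, and 3 and 8 with replicates 1 and 2 alone). MYB16, a regulator of cuticle formation, had 5.19, 5.55 and 4.75 CPM in the double mutant with ATP, against 13.6, 14.7 and 14.6 CPM in p2k1-3 with ATP (-1.46 ± 0.12). The acyltransferase gene DCR (listed as PEL3) fell by 0.56 ± 0.11, and the exporter genes ABCG11 and ABCG32 fell by 0.32 and 0.35. Opposed to these, the fatty acid hydroxylase gene CYP86A4 had 22.3, 20.4 and 20.3 CPM in the double mutant and 9.92, 10.6 and 9.64 CPM in p2k1-3 (1.06 ± 0.08). Of the epidermal markers, 4 fell and 2 rose in the same libraries, and their summed level overlapped, as given above.

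Wax genes rose in 7 of 16 cases and fell in 3 (median 0.10, and 5 and 2 with replicates 1 and 2 alone). DEWAX (AT5G61590), a repressor of wax synthesis, had 24.2, 31.2 and 26.9 CPM in the double mutant and 71.0, 89.0 and 79.4 CPM in p2k1-3 (log2 -1.54 ± 0.10). MYB96, an activator of wax genes, had 33.0, 34.6 and 35.6 CPM in the double mutant and 19.1, 23.1 and 21.7 CPM in p2k1-3 (0.69 ± 0.06). The alkane genes CER1 and CER3 did not pass the test. Of 12 suberin genes 7 rose and none fell (median 0.36, and 5 with replicates 1 and 2 alone). GPAT5, an acyltransferase of suberin synthesis, had 2.68, 3.36 and 3.51 CPM in the double mutant and 1.40, 1.82 and 1.60 CPM in p2k1-3 (0.99 ± 0.20).

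Of 21 cell wall loosening genes 11 rose and 8 fell (10 and 6 with replicates 1 and 2 alone). Most risers were xyloglucan endotransglucosylase genes (XTH). XTH19 had 137, 116 and 125 CPM in the double mutant and 24.5, 23.4 and 23.3 CPM in p2k1-3 (log2 2.41 ± 0.09). XTH18 had 380, 350 and 361 CPM in the double mutant and 102, 106 and 99.3 CPM in p2k1-3 (1.83), and XTH22 (listed as TCH4), a touch-induced gene, 896, 879 and 877 CPM in the double mutant and 370, 422 and 398 CPM in p2k1-3 (1.15). The expansin genes EXPA1, EXPA3 (listed as EXP3), EXPA8, EXPA10, EXPA11 and EXPA15 fell, as did XTH4 and XTH9 by 0.12 and 0.35, and EXPA5 rose by 0.28.

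Detoxification genes were mostly lower, with 12 of 23 falling and 4 rising (median -0.36, and 8 and 4 with replicates 1 and 2 alone). Besides CYP81D11, the glutathione transferase gene GSTU1 had 5.95, 5.73 and 5.13 CPM in the double mutant and 20.8, 20.3 and 19.4 CPM in p2k1-3 (log2 -1.84), and the oxophytodienoate reductase gene OPR1 78.2, 96.0 and 82.2 CPM in the double mutant and 196, 201 and 202 CPM in p2k1-3 (-1.22). The glutathione transferase genes GSTF6 and GSTF7, neighbours of similar sequence, rose by 1.77 and 1.24, and GSTU11 and GSTU12 by 1.64 and 1.85.

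Auxin genes fell in 10 of 23 cases and rose in 4 (median -0.09, and 9 and 2 with replicates 1 and 2 alone). DFL1 (GH3.6), which conjugates auxin to amino acids, had 13.4, 15.6 and 14.6 CPM in the double mutant and 31.8, 33.0 and 32.9 CPM in p2k1-3 (log2 -1.16 ± 0.09). The efflux carrier genes PIN3, PIN4 and PIN7 fell by 0.56, 1.01 and 0.50. The largest rise of the list was that of IAA6, at low levels (1.60 ± 0.28). It had 1.15, 1.34 and 1.69 CPM in the double mutant and 0.513, 0.510 and 0.352 CPM in p2k1-3. Of 15 clock genes 9 fell and 3 rose (median -0.35, and 8 and 2 with replicates 1 and 2 alone). The morning gene CCA1 had 6.75, 8.18 and 8.98 CPM in the double mutant and 18.4, 24.8 and 20.7 CPM in p2k1-3 (-1.41 ± 0.12), and its partner LHY did not pass the test. The evening genes TOC1 and LUX (listed as PCL1) rose by 0.40 and 0.49. The labels give no time of day.

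Late anthocyanin genes rose: DFR, which makes leucoanthocyanidins, had 50.9, 56.4 and 56.8 CPM in the double mutant and 8.04, 19.3 and 13.9 CPM in p2k1-3 (log2 2 ± 0.18), and LDOX and UF3GT rose by 1.89 ± 0.17 and 2.02 ± 0.19. In all, 6 of 11 anthocyanin genes rose and 1 fell (6 and 1 with replicates 1 and 2 alone). Of 17 abscisic acid and dehydration genes 9 rose and 2 fell (median 0.44, and 6 and 0 with replicates 1 and 2 alone). CYP707A3, which degrades abscisic acid, had 142, 137 and 142 CPM in the double mutant and 42.1, 63.0 and 52.4 CPM in p2k1-3 (1.42 ± 0.12).

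The remaining lists had no prevailing direction or few calls. Of 18 phosphate starvation genes 3 rose and 7 fell (1 and 2 with replicates 1 and 2 alone), with MGD3 (listed as MGDC), a galactolipid synthase gene, lowest at -2.10 ± 0.32. Of 12 heat shock genes 6 rose and 4 fell (5 and 3 with replicates 1 and 2 alone). HSP70 (AT3G12580) had 23.9, 23.3 and 22.7 CPM in the double mutant and 60.2, 38.0 and 49.9 CPM in p2k1-3 (-1.09 ± 0.15). Of 21 sugar genes 9 rose and 6 fell (7 and 5 with replicates 1 and 2 alone). The beta-amylase gene BAM5 had 16.4, 21.7 and 17.5 CPM in the double mutant and 2.98, 3.75 and 3.97 CPM in p2k1-3 (2.38 ± 0.20).

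**Figure D3:**
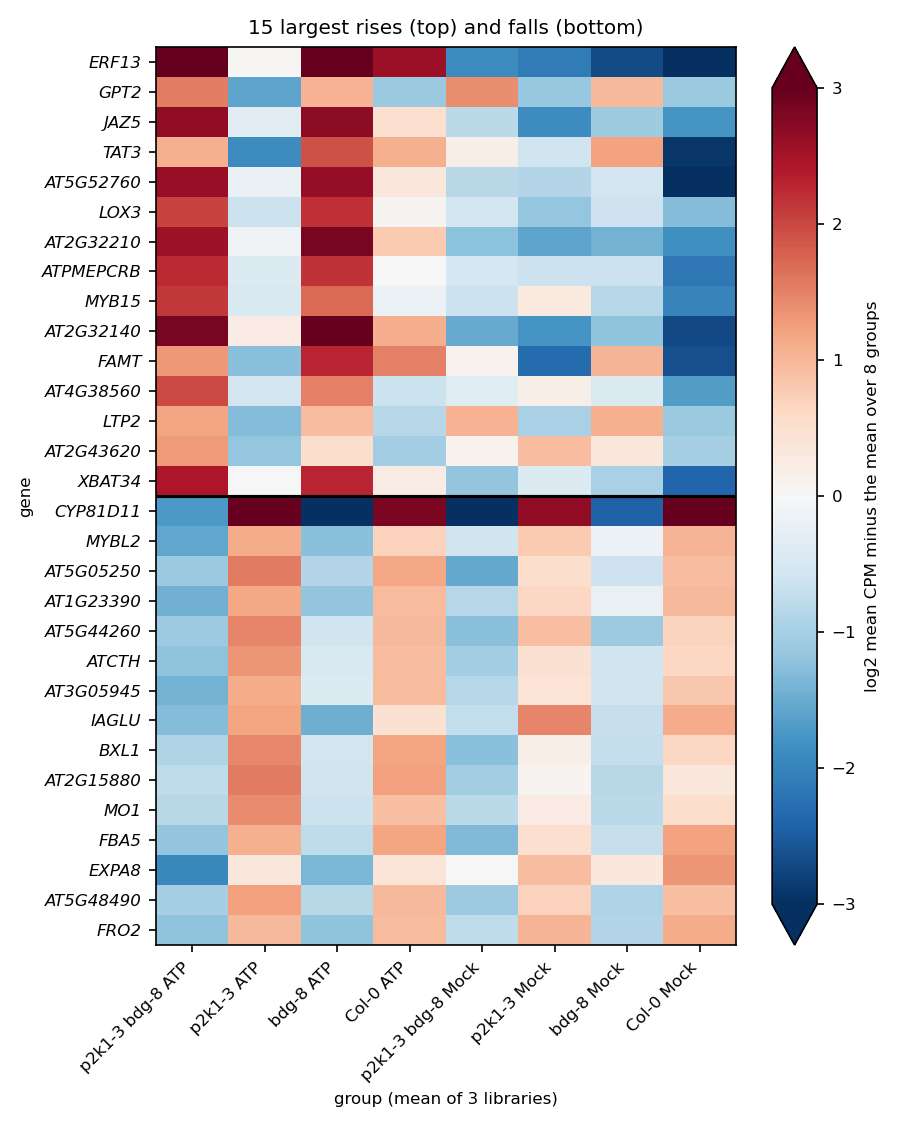
Log2 of the mean CPM of the 15 largest rises and 15 largest falls in the 8 groups, each gene centred on its own mean over the groups. Red is above and blue below that mean. The rises are red in p2k1-3 bdg-8 with ATP and in bdg-8 with ATP, and the falls, led by CYP81D11, are blue in those groups and mostly blue in both bdg-8 groups after mock.

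The next comparison asked how much of the difference was already there without ATP. After mock treatment, the double mutant differed from p2k1-3 in 6555 genes (31.2%), 3180 higher (15.1%) and 3375 lower (16.1%), and in 2161 with replicates 1 and 2 alone (10.3%). No library is shared with the ATP comparison. Of the 6038 genes higher with ATP, 2513 (41.6%) were also higher after mock, which is 79.0% of the 3180, and 352 were lower. Of the 5285 lower with ATP, 2473 (46.8%) were also lower after mock, which is 73.3% of the 3375, and 49 were higher. Across the 20995 genes the log2 fold changes of both comparisons had a Pearson r of 0.53, given as a description since genes are not independent.

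The largest rises and falls differed in this respect. All 15 of the largest falls with ATP were also called lower after mock. Of the 15 largest rises, 5 were also higher after mock, 3 were lower and 7 were not called. CYP81D11 had a mean of 0.234 ± 0.088 CPM in the double mutant after mock and 31.8 ± 4.2 CPM in p2k1-3 after mock (SD, n = 3 each). GPT2 averaged 358 ± 17 CPM in the double mutant after mock and 62.4 ± 23 CPM in p2k1-3 after mock, and the change in its difference with ATP did not pass the test (0.61 ± 0.29, adjusted p 0.17). ERF13 averaged 0.938 ± 0.27 CPM in the double mutant after mock and 0.822 ± 0.29 CPM in p2k1-3 after mock, so its difference was larger with ATP by 3.01 ± 0.34 log2 units (adjusted p 4.1e-07).

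Lists differed in their values after mock. Jasmonate synthesis genes had a median of 0.24 after mock, with 7 of 13 higher and 1 lower, and jasmonate repressors and output genes 0.28, with 6 of 19 higher and none lower. WRKY genes, with a median of 1.08 with ATP, had -0.29 after mock, where 2 of 18 were higher and 7 lower. Cysteine-rich kinases had -0.35 after mock, with 9 of 19 lower and none higher, against 16 higher with ATP. Among them CRK13 and CRK14 had their highest mock level in p2k1-3. CRK14 averaged 5.99 CPM there, against 2.52 CPM in the double mutant, 3.34 CPM in bdg-8 and 1.82 CPM in Col-0 after mock. CRK6 differed little between p2k1-3 (4.66 CPM), the double mutant (4.09 CPM) and bdg-8 (3.92 CPM) after mock, and Col-0 was lowest (0.919 CPM). The share of a raised p2k1-3 mock level in these list values was not tested. The 32 pattern recognition genes had -0.05 after mock, with 4 higher and 6 lower. Anthocyanin and suberin genes stood apart from these, with medians of 0.68 and 0.53 after mock, against 0.52 and 0.36 with ATP. DFR averaged 59.8 ± 6.2 CPM in the double mutant after mock and 11.3 ± 1.5 CPM in p2k1-3 after mock. Green tissue and guard cell markers had medians of -0.25 and -0.46 after mock, against -0.55 and -0.59 with ATP. After mock 8 of 15 and 5 of 10 of them were lower, and none higher.

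The difference between the ATP and the mock contrast was tested gene by gene. It was called for 3406 genes (16.2%), 2067 of them more positive with ATP (9.85%) and 1339 more negative (6.38%), and for 1267 with replicates 1 and 2 alone (6.03%), 1023 more positive (4.87%) and 244 more negative (1.16%). In the WRKY list 16 of 18 genes were more positive with ATP, in the pattern recognition list 23 of 32 and among cysteine-rich kinases 14 of 19, with none more negative in any of the 3. In the calcium list 11 of 20 were more positive and 1 more negative, and in the salicylic acid list 12 of 18 and 1. Of the jasmonate synthesis genes 6 of 13 were more positive and 2 more negative, and of the jasmonate repressors and output genes 8 of 19 and none. Green tissue markers were more negative with ATP in 7 of 15 cases and guard cell markers in 2 of 10, with none more positive. LHCB2.1 stood at -0.51 after mock, and its difference was -0.69 ± 0.15 (edgeR adjusted p 0.0023, and 0.15 with replicates 1 and 2 alone).

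Among genes with an average log2 CPM of at least 1, FRK1 had the largest such difference, 3.89 ± 0.47 log2 units (adjusted p 1.1e-06). Its means after mock were 7.88 ± 2.6 CPM in the double mutant and 48.1 ± 27 CPM in p2k1-3, so it was lower in the double mutant without ATP and higher with it. In bdg-8 and Col-0 after mock FRK1 averaged 6.09 ± 1.0 and 8.80 ± 0.88 CPM, so p2k1-3 was the mock group that stood apart, with a wide spread. AT2G17740, AT1G05675, AT5G36925 and AT5G36907 had differences of 3.55 to 3.76, and all 4 were likewise lower in the double mutant after mock. Each of the 4 was highest in p2k1-3 among the mock groups. AT2G17740 averaged 12.7 CPM there, against 1.94 CPM in the double mutant, 1.87 CPM in bdg-8 and 3.32 CPM in Col-0 after mock. At the other end stood AT2G04050 at -3.26 ± 0.90 (adjusted p 0.0127, and 0.259 with replicates 1 and 2 alone), whose replicates varied widely (9.81 ± 8.6 CPM in the double mutant after mock) and whose fall with ATP (adjusted p 0.0498, and 0.23 with replicates 1 and 2 alone) was lost in 5 of the 6 fits that left out 1 library. HBI1, a growth-promoting bHLH factor, had 13.5, 13.3 and 13.4 CPM in the double mutant with ATP and 54.8, 62.9 and 57.3 CPM in p2k1-3 with ATP. After mock it averaged 35.8 ± 2.7 CPM in the double mutant and 55.2 ± 1.2 CPM in p2k1-3, a difference between contrasts of -1.50 ± 0.13 (adjusted p 7.4e-09).

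**Figure D4:**
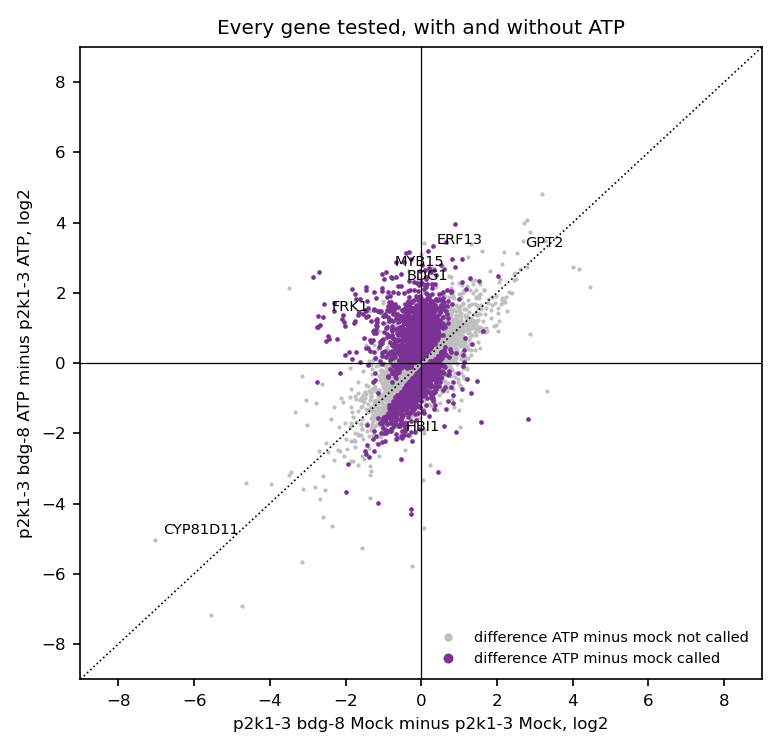
Log2 fold change of each of the 20995 genes in the double mutant against p2k1-3, after mock (x axis) and with ATP (y axis); the dotted line marks equal values, and purple genes are the 3406 whose difference was called. FRK1 lies left of 0 and above 0, and CYP81D11 is far below 0 on both axes.

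Genes were then grouped by the response of the wild type, using Col-0 libraries that the main comparison does not contain. ATP raised 785 genes at least 2 fold in Col-0 (3.74% of genes tested). Of these 785, 668 (85.1%) were higher in the double mutant than in p2k1-3 with ATP and 29 were lower, with a median log2 fold change of 1. After mock, 108 of the same genes were higher (13.8%) and 146 lower (18.6%), near the 15.1% and 16.1% of all genes tested (median -0.03). The 120 genes that ATP lowered at least 2 fold in Col-0 (0.572%) were lower with ATP in 45 cases (37.5%) and higher in 4 (3.33%). Over all genes tested these shares were 25.2% and 28.8%. After mock, 32 of these 120 were already lower (26.7%) and 14 higher (11.7%), against 16.1% and 15.1% of all genes tested. The test called 4585 genes in Col-0 (21.8%). Among the 16410 that it did not call, 3914 (23.9%) were higher and 4144 (25.3%) lower.

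The last comparison set the bdg-8 difference in the p2k1-3 background beside that in the Col-0 background, both with ATP, with no library in common. In the Col-0 background bdg-8 differed from Col-0 in 9626 genes (45.8%), 5154 higher (24.5%) and 4472 lower (21.3%), and in 5636 with replicates 1 and 2 alone (26.8%). Of the 6038 genes higher in the double mutant, 4282 (70.9%) were higher in bdg-8 too, which is 83.1% of the 5154, and 9 were lower. Of the 5285 lower genes, 3718 (70.4%) were lower in bdg-8 too, which is 83.1% of the 4472, and 8 were higher. Pearson's r across the 20995 genes was 0.82. Changes of at least 2 fold were fewer in the Col-0 background, with 445 genes higher and 422 lower, against 816 and 557 in the p2k1-3 background. All 15 of the largest rises and all 15 of the largest falls were called in the same direction in bdg-8 against Col-0.

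A direct test of the difference between the backgrounds called 198 genes (0.943%), 126 more positive in the p2k1-3 background (0.6%) and 72 more negative (0.343%). This count rested on few libraries. It was 3 with replicates 1 and 2 alone (0.0143%), and it was 59 without bdg-8 ATP replicate 2, 93 without p2k1-3 ATP replicate 3, 95 without bdg-8 ATP replicate 3, 111 without double mutant ATP replicate 3, 113 without Col-0 ATP replicate 3, 314 without Col-0 ATP replicate 2 and 415 without bdg-8 ATP replicate 1. The 3 genes called with replicates 1 and 2 alone were ERF13, AT3G25150 and PR5K.

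ERF13 averaged 53.6 ± 7.2 CPM in bdg-8 with ATP and 20.6 ± 0.78 CPM in Col-0 with ATP. Its difference of 1.38 log2 units there was smaller than the 3.2 in the p2k1-3 background, by 1.82 ± 0.16 (adjusted p 5.5e-07). Its levels with ATP thus ran, from high to low, bdg-8, double mutant, Col-0 and p2k1-3. TAT3, FAMT and VSP2, genes linked to jasmonate or its markers, were also more positive in the p2k1-3 background, by 2.11 ± 0.49, 1.79 ± 0.38 and 1.62 ± 0.34, but none of the 3 passed with replicates 1 and 2 alone. VSP2 averaged 9.16 ± 3.1 CPM in bdg-8 with ATP and 9.61 ± 3.8 CPM in Col-0 with ATP.

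Among the genes more negative in the p2k1-3 background, AT3G25150 and PR5K, a receptor kinase gene, differed little between the double mutant and p2k1-3 with ATP. AT3G25150 had 62.2, 62.5 and 61.5 CPM in the double mutant and 54, 54.9 and 61.7 CPM in p2k1-3, with groups that overlapped in 1 library (1.09-fold, adjusted p 0.0425). It averaged 50.7 ± 1.9 CPM in bdg-8 with ATP and 11.1 ± 0.62 CPM in Col-0 with ATP, and its difference between backgrounds was -2.07 ± 0.08. Col-0 was low after mock as well, at 11.4 ± 0.61 CPM, while p2k1-3, which is not labelled bdg-8, averaged 56.9 ± 0.58 CPM after mock. Whether the difference between bdg-8 and Col-0 in this gene reflects bdg-8 or a difference of the Col-0 line was not tested. PR5K had 7.38, 7.42 and 8.19 CPM in the double mutant and 6.64, 7.03 and 6.73 CPM in p2k1-3. It averaged 10.8 ± 0.29 CPM in bdg-8 with ATP and 4.62 ± 0.42 CPM in Col-0 with ATP (-1.06 ± 0.11). After mock PR5K was likewise lowest in Col-0, at 2.95 ± 0.11 CPM. It then averaged 5.28 ± 0.24 CPM in p2k1-3, 5.88 ± 0.15 CPM in the double mutant and 6.49 ± 0.63 CPM in bdg-8. Whether its difference between backgrounds reflects bdg-8 or the Col-0 line was not tested either.

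**Figure D5:**
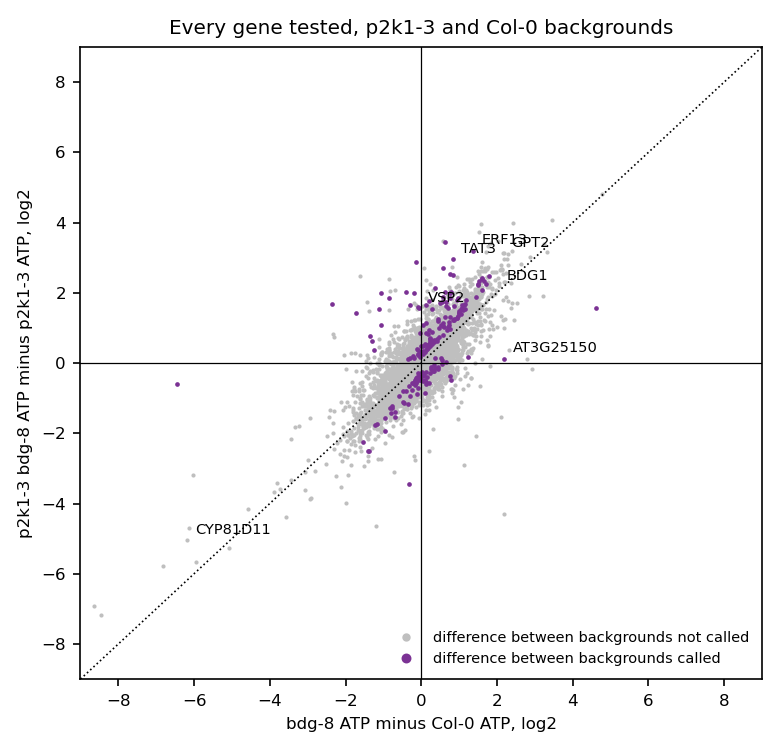
Log2 fold change of each of the 20995 genes for bdg-8 against Col-0 with ATP (x axis) and for the double mutant against p2k1-3 with ATP (y axis); purple genes are the 198 whose difference between backgrounds was called. Most genes lie along the dotted line of equal values, ERF13 and TAT3 lie above it, and AT3G25150 lies far to the right near 0 on the y axis.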

How the data were processed

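RNA-seq of polyadenylated RNA from 24 Arabidopsis thaliana seedling libraries, 8 groups of 3, was analysed. The authors deposited raw read counts per gene, 1 table for each library. Per the submitters' processing notes, cutadapt 1.13, STAR 2.7.4a, HTSeq 0.13.5 and MultiQC 1.9 were used. The genome build, annotation and strand setting are not given in the sources used here. The 5 summary rows of each table (7.6 to 12.2% of its total, with ambiguous reads at 4.03 to 4.4% and reads without a unique position at 3.13 to 7.59%) were left out, so near-identical, overlapping and antisense genes are uncertain.

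Of 33245 identifiers, 33056 were given names from the RefSeq gene table of TAIR10.1. edgeR 4.0.16 in R 4.3.3 fitted all 24 libraries with 8 group means after TMM scaling (0.954 to 1.07) and filterByExpr, which removed 12250 genes and left 20995. Its quasi-likelihood test was adjusted over these by Benjamini-Hochberg and called under 0.05. It was tried on simulated data in which few genes changed and replicates were independent. Such data cannot show how it performs with as many changes as here, or with replicates that are not independent. CPM are from scaled library totals. DESeq2 1.42.0, other scaling, no filter, fewer libraries and a replicate block were tried as alternatives. The spread between libraries used in the test holds both counting error and differences between libraries.

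A naming rule picked P2K1 and BDG1, the 15 largest rises and falls, up to 3 called genes of each of 31 lists and the 5 extremes a side of each difference test. Not all genes picked for the lists are described above, and the rule did not set which of them are. Other genes named were chosen after their values were seen. The comparison, members and lists were chosen with earlier results of these data known. No sequences or coordinates are printed.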

Additional observations from a re-analysis of the deposited data

Results flagged for a closer look

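The double mutant's difference from p2k1-3 changed between ATP and mock treatment for 3406 genes, by a test of the difference itself. In log2 units, ATP minus mock, it was more positive for FRK1 (3.89), AT2G17740 (3.76), AT1G05675 (3.73), AT5G36925 (3.63), AT5G36907 (3.55) and BDG1 (2.79). It was more negative for AT2G04050 (-3.26), P1R1 (-1.63), CYP78A6 (-1.62), HBI1 (-1.5) and AT2G20670 (-1.44). All the genes named as more positive except BDG1 had their highest mock level in p2k1-3. The difference of AT2G04050 did not pass with replicates 1 and 2 alone (edgeR adjusted p 0.259).

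The difference that bdg-8 made with ATP departed between the p2k1-3 and the Col-0 background for 198 genes, again by a test of the difference. In log2 units, p2k1-3 minus Col-0 background, it was more positive for TAT3 (2.11), AT5G38930 (1.95), ERF13 (1.82), FAMT (1.79) and VSP2 (1.62). It was more negative for AT3G25150 (-2.07), AT4G07820 (-1.14), AT3G05945 (-1.13), ATCTH (-1.11) and PR5K (-1.06). For AT3G25150, Col-0 was below the other 3 genotypes with either treatment, among them p2k1-3, which is not labelled bdg-8. PR5K was also lowest in Col-0 with either treatment. Whether the values of AT3G25150 and PR5K reflect bdg-8 or a difference of the Col-0 line was not tested. Of these 10 genes, ERF13, AT3G25150 and PR5K passed with replicates 1 and 2 alone.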

How the results depend on the processing

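The comparison of the double mutant with p2k1-3 with ATP, 11323 genes, gave 11313 with DESeq2 size factors, 10998 without a filter on low counts, 10550 with DESeq2's Wald test, 11023 from the libraries of both groups alone, 11619 with a replicate block and 10010 to 10804 with 1 library left out. From the libraries of both groups alone, 5473 genes were higher and 5550 lower, against 6038 and 5285 in the main fit. The balance of directions thus depended on the libraries in the fit. The alternatives were followed gene by gene for 132 genes, those picked by the naming rule, and none of these reversed where it was tested. Replicate numbers are not stated to mark a shared batch, and deviations of same-numbered libraries of both ATP groups correlated at 0.0338, 0.0227 and 0.0578. Over all groups, 32 of 84 same-numbered pairs exceeded 0.1 (median 0.0469), against 8 of 168 pairs with different numbers (median -0.0177), a hint from the data that some same-numbered libraries share variation. The replicate block gave 7153 genes for the mock comparison and 3935 for the difference between ATP and mock, and lost the call of AT2G04050 alone among the 132. Replicates 1 and 2 alone left 2161 genes for the mock comparison, 5636 for bdg-8 against Col-0 and 1267 for the difference between ATP and mock, and lost 9 calls among the 132 (SYP111, RHD6, AT2G04050, AT2G17740, FRK1, SPX3, PRP3, CASP5 and P2K1). The difference between backgrounds, 198 genes, was the least stable: 3 genes with replicates 1 and 2 alone, 542 with replicates 2 and 3 alone, 416 with the replicate block, and 59 to 415 with 1 library left out. The cause was not tested. Genes under the count filter were not tested, although every library held at least 25856588 gene counts.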

Other observations

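Some genes outside the lists above moved in ways worth a further look at their values. CYP78A6, a cytochrome P450 gene, had 0.522, 0.672 and 0.516 CPM in the double mutant with ATP, against 2.43, 2.48 and 2.34 CPM in p2k1-3 with ATP, with groups that did not overlap. AT3G25150 stood at 62.1 ± 0.508 CPM in the double mutant with ATP and at 50.7 ± 1.95 CPM in bdg-8 with ATP, against 11.1 ± 0.619 CPM in Col-0 with ATP (SD, n = 3 each). After mock treatment AT3G25150 averaged 59 CPM in the double mutant, 56.9 CPM in p2k1-3, 45.8 CPM in bdg-8 and 11.4 CPM in Col-0, so Col-0 was low with either treatment.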
